A study of Mus musculus with 20 samples.

Results

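The major urinary proteins are small secreted carriers of the lipocalin family, and this account follows 7 of their genes (Mup1, Mup3, Mup11, Mup14, Mup17, Mup20 and Mup21) through 20 liver RNA-seq libraries of male mice. The 7 rows were taken by symbol from a table of read counts with 29915 rows, in which 19 rows carried a Mup symbol. They were chosen from earlier results on these same libraries, without a record of which value chose each, so their levels and fold changes are given as a description. Counts of members past a threshold are set beside the share of all genes past it, and nothing is concluded from them. All 7 passed the filter on low counts. The 4 groups of 5 libraries were refed livers with a hepatocyte-specific Prox1 K556R knock-in (K556R refed), refed livers with wild-type Prox1 (WT refed), K556R fasted livers and WT fasted livers. Prox1 is a homeodomain transcription factor of hepatocytes, and K556R replaces a lysine to which SUMO, a small protein modifier, is attached. Recombination by Cre switched the K556R form on when the mice were 8 weeks old, and livers were collected 11 weeks afterwards at Zeitgeber times 15 to 17. All mice were male and ate regular chow under equal periods of light and dark. The titles call the genotypes Cre and Ctrl. An effect of Cre itself and one of K556R therefore cannot be told apart. The sources used here do not give the promoter that drove Cre or the lengths of fasting and refeeding. Batch 1 held 14 libraries and batch 2 held 6, of which 3 were K556R refed and 1 came from each other group. Libraries are named by replicate number and batch, so that 1_b1 is replicate 1 of batch 1.

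Mouse liver secretes major urinary proteins into the blood, and the kidney passes them into the urine, where they bind and slowly release volatile pheromones. Hepatic transcription of these genes is higher in males and depends on pulsatile growth hormone acting through STAT5, with further input from androgen, thyroid hormone and glucocorticoid. The genes lie side by side in a cluster that grew by duplication, and some copies are nearly identical while others have diverged. Mup20 encodes darcin, a male pheromone protein that attracts females, and MUP1 has been reported to act on glucose metabolism in mice.

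All 7 genes are annotated on the minus strand of chromosome 4 (GENCODE M21, GRCm38, the assembly that mm10 names), as protein-coding genes. Mup1 spans 60498012 to 60501960, Mup11 spans 60658466 to 60662411, Mup14 spans 61300023 to 61304000 and Mup17 spans 61591929 to 61595871. Mup20 spans 62050234 to 62054158, Mup3 spans 62083476 to 62087342 and Mup21 spans 62147932 to 62150863, so the last 3 lie at one end of the cluster. Each has 6 coding exons, and the coding sequence of the longest annotated transcript is 540 to 552 bases. The annotation holds 22 protein-coding Mup genes and 27 Mup pseudogenes. Mup16, Mup18 and Mup22 were not analysed here.

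How far the 7 genes can be told apart by reads decides how each count can be read, so a stretch of 60 coding bases is shown for each, taken from GENCODE M21 transcripts where the 7 differ most. It runs 5′ to 3′ on the coding strand across an exon junction, and capitals mark bases that differ from Mup11.
Mup11: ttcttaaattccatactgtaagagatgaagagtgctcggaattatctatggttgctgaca
Mup1: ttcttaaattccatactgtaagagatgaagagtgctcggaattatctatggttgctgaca
Mup14: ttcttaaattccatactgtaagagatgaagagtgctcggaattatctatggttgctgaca
Mup17: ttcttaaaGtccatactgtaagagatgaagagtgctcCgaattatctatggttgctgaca
Mup20: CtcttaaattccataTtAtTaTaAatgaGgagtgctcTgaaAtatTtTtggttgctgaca
Mup3: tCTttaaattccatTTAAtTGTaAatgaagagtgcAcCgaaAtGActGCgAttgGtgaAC
Mup21: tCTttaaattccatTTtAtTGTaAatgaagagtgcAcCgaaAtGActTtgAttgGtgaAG
Mup1 and Mup14 had 0 differences from Mup11 in this stretch, Mup17 had 2, Mup20 had 11, Mup21 had 19 and Mup3 had 21. Over the whole coding sequence, Mup1, Mup11, Mup14 and Mup17 were 98.5 to 99.1% identical to each other. Mup20 was 90.2 to 91.3% identical to these 4. Mup3 and Mup21 were 95.4% identical to each other and 83.5 to 84.7% identical to the same 4.

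Near-identical members share reads. Of all 100-base stretches of the transcript, 91.4% of those of Mup14, 87.2% of those of Mup1, 83.5% of those of Mup11 and 59.4% of those of Mup17 also occurred, base for base, in a transcript of another gene. For Mup20 the share was 38.8%, all with 1 other gene that is not among the 7, while for Mup3 it was 2.94% and for Mup21 4.50%. How reads matching several genes were counted is not stated in the labels or in the table. The rows Mup1, Mup11, Mup14 and Mup17 are therefore uncertain as measures of single genes, and values for them are best read together, whereas most stretches of Mup3 and Mup21 belong to those genes alone. Symbols have also moved within the family: in RefSeq's synonyms, the names Mup1, Mup3, Mup11, Mup14 and Mup17 were each once used for at least 1 other gene, and Mup20 and Mup21 for 0.

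**Figure D1:**
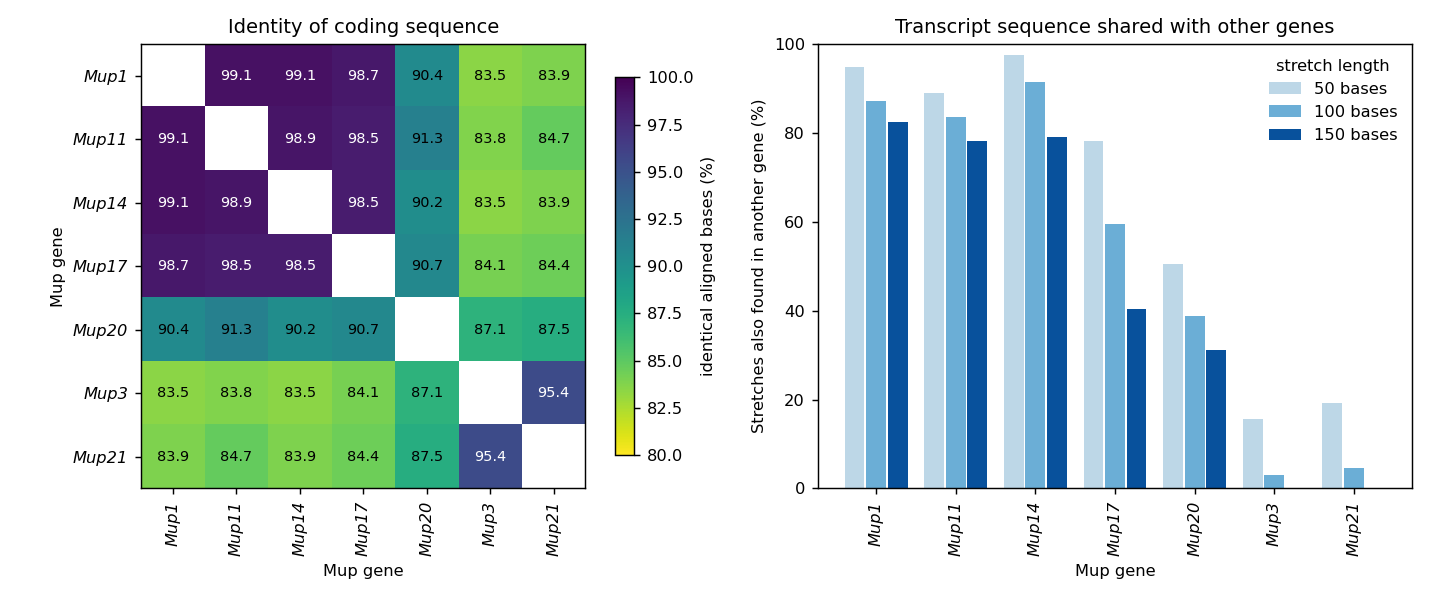
Left, identity of the coding sequence between each pair of genes, as the percent of aligned bases that match. Right, percent of stretches of 50, 100 or 150 bases in each gene's longest transcript that also occur in another gene's transcript; Mup1, Mup11, Mup14 and Mup17 form a block of 98.5 to 99.1% identity, and no 150-base stretch of Mup3 or Mup21 was shared.

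The sequence upstream of the start is shown for Mup11, for Mup14 and for Mup3, the most abundant row. Each is 120 bases that end just before the RefSeq start (GRCm38.p6, minus strand, written 5′ to 3′), at chr4:60662396-60662515 for Mup11, chr4:61303999-61304118 for Mup14 and chr4:62087318-62087437 for Mup3. Capitals mark TATATAA.
Mup11: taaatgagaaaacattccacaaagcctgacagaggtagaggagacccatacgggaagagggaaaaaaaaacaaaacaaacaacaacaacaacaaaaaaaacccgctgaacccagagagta
Mup14: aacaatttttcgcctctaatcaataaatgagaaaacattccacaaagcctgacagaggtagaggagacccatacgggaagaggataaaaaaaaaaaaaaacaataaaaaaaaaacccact
Mup3: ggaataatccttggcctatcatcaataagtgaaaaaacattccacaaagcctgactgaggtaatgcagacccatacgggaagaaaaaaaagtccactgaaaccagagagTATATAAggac
RefSeq promoters were matched for 5 of the 7 genes. Over the aligned part of 250 upstream bases, Mup11 was 98.7% identical to Mup17 and 96.9% to Mup14, and Mup3 was 93.4% identical to Mup21. Between these 2 sets identity was 84.6 to 87.6%. TATATAA, searched on both strands, occurred in the 250 bases of Mup3, Mup17 and Mup21 and in 3.04% of all 32851 promoters of that length. TTCNNNGAA, the form of a STAT5 site, occurred in 0 of the 5 and in 7.02% of all promoters. The annotated starts of these genes do not lie at matching bases, so the windows are offset from each other, and a missing match says only that the letters are not in the window.

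Libraries held 33746054 to 50647297 counts, and the 7 rows took up 0.754 to 1.27% of them. Levels are given as CPM, counts divided by library sizes scaled with TMM (trimmed mean of M values). Hepatocyte markers fitted the label liver: all 8, among them Alb, which encodes albumin, were detected, with a summed level of 102000 to 142200 CPM among the libraries other than those singled out next. Prox1 stood at 57.7 to 89.4 CPM in K556R refed against 93.3 to 132.9 CPM in WT refed livers, and at 84.99 to 125.8 CPM in K556R fasted against 120.7 to 223.2 CPM in WT fasted livers. Its log2 fold change was -0.61 in refed livers (SE 0.15, edgeR adjusted p = 0.559) and -0.82 in fasted livers (SE 0.14, adjusted p = 0.0666). Counts per gene do not show the K556R codon. The fasting gene Pck1, which encodes a gluconeogenic enzyme, fell on refeeding, with a log2 fold change of -2.34 in K556R (SE 0.34, edgeR adjusted p = 2.87e-05) and of -2.78 in WT livers (SE 0.33, adjusted p = 2.52e-06).

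A pair of libraries stood apart from the other 18 in the Mup rows: replicate 1_b1 of K556R refed and replicate 1_b1 of K556R fasted. They share a replicate number and a batch, and the labels do not say whether they share a litter, a strain background or a day of collection. In the K556R refed 1_b1 library, the summed level of Mup1, Mup11, Mup14 and Mup17 was 5.60 CPM, and in the K556R fasted 1_b1 library it was 13.7 CPM. In the other 18 libraries the same sum ran between 130.3 and 1447 CPM. Both also had the lowest Mup3 of all libraries, while 1 of them, K556R refed 1_b1, had the highest Mup20. Lymphocyte markers and proliferation genes lay above the range of the other 18 in both libraries. Lymphocyte markers (7 in the table, none at 0 in all libraries) summed to 5.86 CPM in K556R refed 1_b1 and 6.73 CPM in K556R fasted 1_b1, against 0.645 to 2.43 CPM in the other 18. Proliferation genes (7 in the table) summed to 35.4 CPM in K556R refed 1_b1 and 16.2 CPM in K556R fasted 1_b1, against 5.69 to 9.84 CPM in the other 18. Hepatocyte markers summed to 103100 CPM in K556R refed 1_b1 and 134300 CPM in K556R fasted 1_b1, inside the range of the others. Stellate cell markers summed to 215.0 CPM in K556R refed 1_b1 and 241.6 CPM in K556R fasted 1_b1, against 114.6 to 229.8 CPM in the other 18, and Kupffer and endothelial cell markers lay inside the range of the others. Some lists lay outside the range of the other 18 libraries, of both feeding states, in K556R refed 1_b1 alone. Cholangiocyte markers summed there to 48.7 CPM against 27.2 to 43.6 CPM, and other lipocalin genes to 4818 CPM against 5593 to 7078 CPM. Hormone receptors with hepatocyte factors summed there to 1456 CPM against 1525 to 2434 CPM. In K556R fasted 1_b1 that sum was 2099 CPM against 2137 to 2434 CPM in the other fasted libraries. Other lipocalin genes in K556R fasted 1_b1 summed to 5994 CPM. They ran from 6571 to 6823 CPM in the other K556R fasted and from 5781 to 7078 CPM in WT fasted libraries. GH and STAT5 pathway genes summed to 1212 CPM in K556R fasted 1_b1 against 1253 to 1575 CPM in the other 18. In K556R refed 1_b1 they summed to 1396 CPM against 1441 to 1575 CPM in the other refed libraries. The part of these cells in the Mup levels was not tested. Fewer cells of a type and less RNA per cell cannot be told apart in whole liver. Results below are given with all 20 libraries and, where they differ, without these 2.

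Per kilobase of transcript, Mup3 had the highest level of the 7 in every group, averaging 6498 ± 1765 CPM per kilobase in K556R refed, 7185 ± 397 in WT refed, 6982 ± 1450 in K556R fasted and 8109 ± 598 in WT fasted livers (SD, n = 5 each). Mup20 came next, with means of 2366 ± 752 CPM per kilobase in K556R refed, 1912 ± 153 in WT refed, 2169 ± 629 in K556R fasted and 2578 ± 608 in WT fasted livers. In WT fasted livers Mup14 (296.9 ± 185.3 CPM per kilobase), Mup21 (294.5 ± 41.2), Mup17 (273.3 ± 144.9) and Mup11 (253.0 ± 107.6) were within each other's spread, and Mup1 was lowest at 37.7 ± 16.2. The full length was used, although 91.4% of 100-base stretches of Mup14 and 2.94% of those of Mup3 are shared with another gene. How shared reads were counted is not stated. The place of Mup1, Mup11, Mup14 and Mup17 in this ranking, and their share of the summed level below, are therefore uncertain. Within 1 gene, levels below are in CPM.

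Mup1 was the only one of the near-identical 4 whose groups did not overlap between the genotypes. These 4 rows share reads, and their summed level did overlap between the genotypes. The sum ran from 5.60 to 503.3 CPM in K556R refed against 378.2 to 602.9 CPM in WT refed livers. In fasted livers the sum ran from 13.7 to 401.5 CPM in K556R against 398.1 to 1447 CPM in WT. In K556R refed livers Mup1 had 0.223, 3.97, 14.1, 9.70 and 12.4 CPM in replicates 1_b1, 2_b1, 1_b2, 2_b2 and 3_b2. In WT refed livers it had 21.9, 18.9, 17.9, 16.3 and 15.1 CPM in replicates 1_b1, 2_b1, 3_b1, 4_b1 and 1_b2, so every K556R refed library lay below every WT refed one. In K556R fasted livers Mup1 had 0.198, 9.68, 22.5, 8.47 and 8.95 CPM in replicates 1_b1, 2_b1, 3_b1, 4_b1 and 1_b2. In WT fasted livers it had 25.3, 28.4, 61.5, 30.2 and 29.4 CPM in the same order, again above all K556R fasted libraries. The order of group means was WT fasted, WT refed, K556R fasted and K556R refed, and only the step between WT fasted and WT refed was free of overlap.

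Mup11 had 2.15, 70.7, 114.8, 136.1 and 100.5 CPM in K556R refed replicates 1_b1, 2_b1, 1_b2, 2_b2 and 3_b2. In WT refed livers Mup11 had 180.6, 108.4, 118.2, 104.1 and 173.9 CPM in replicates 1_b1, 2_b1, 3_b1, 4_b1 and 1_b2, and the groups overlapped. It had 9.63, 103.5, 174.1, 127.0 and 73.2 CPM in K556R fasted replicates 1_b1, 2_b1, 3_b1, 4_b1 and 1_b2. It had 142.3, 144.8, 383.3, 271.6 and 234.5 CPM in the WT fasted replicates in the same order, and 4 of 5 K556R fasted libraries lay below the lowest WT fasted one. Means ran in the order WT fasted, WT refed, K556R fasted and K556R refed, with overlap at each step.

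Mup14 had 2.54, 17.3, 100.2, 107.7 and 91.1 CPM in K556R refed replicates 1_b1, 2_b1, 1_b2, 2_b2 and 3_b2. In WT refed livers Mup14 had 140.7, 140.4, 119.9, 113.3 and 84.96 CPM in replicates 1_b1, 2_b1, 3_b1, 4_b1 and 1_b2. The K556R refed library 2_b1 was thus low in Mup14 too, without being as low as 1_b1. Mup14 had 2.38, 48.8, 78.8, 58.2 and 65.6 CPM in K556R fasted replicates 1_b1, 2_b1, 3_b1, 4_b1 and 1_b2. It had 71.0, 196.0, 538.5, 291.0 and 276.8 CPM in the WT fasted replicates in the same order, so that overlap came down to K556R fasted 3_b1 and WT fasted 1_b1. Means ran in the order WT fasted, WT refed, K556R refed and K556R fasted, with overlap at each step.

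Mup17 had 0.687, 38.3, 251.3, 249.8 and 267.3 CPM in K556R refed replicates 1_b1, 2_b1, 1_b2, 2_b2 and 3_b2. It had 259.8, 166.8, 122.2, 180.1 and 164.6 CPM in WT refed replicates 1_b1, 2_b1, 3_b1, 4_b1 and 1_b2. K556R refed libraries of batch 2 were each above at least 4 of the 5 WT refed ones, and both K556R refed libraries of batch 1 were below all of them. Mup17 had 1.46, 203.0, 126.0, 86.8 and 137.6 CPM in K556R fasted replicates 1_b1, 2_b1, 3_b1, 4_b1 and 1_b2. It had 159.6, 122.4, 463.1, 228.5 and 293.2 CPM in the WT fasted replicates in the same order, and the groups overlapped. Means ran in the order WT fasted, WT refed, K556R refed and K556R fasted, with overlap at each step.

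Mup20, the darcin gene, ran the other way in the 2 libraries that stood apart. In K556R refed livers it had 3384, 1985, 1531, 2036 and 2042 CPM in replicates 1_b1, 2_b1, 1_b2, 2_b2 and 3_b2. In WT refed livers it had 1669, 1614, 1916, 1926 and 1746 CPM in replicates 1_b1, 2_b1, 3_b1, 4_b1 and 1_b2, the narrowest spread of the 4 groups. Of the K556R refed libraries, 4 of 5 lay above the WT refed range and 1 lay below it. Without 1_b1, 3 of 4 lay above it. In K556R fasted livers it had 3005, 1520.1, 2036, 1772 and 1731 CPM in replicates 1_b1, 2_b1, 3_b1, 4_b1 and 1_b2. In WT fasted livers it had 1633, 2505, 3189, 2179 and 2455 CPM in the same order. K556R refed 1_b1 held 1.68 times the median of the other 4 libraries of its group and K556R fasted 1_b1 held 1.72 times. All neighbours in the order of means (WT fasted, K556R refed, K556R fasted, WT refed) overlapped.

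Mup3 had 3304, 7102, 7326, 7337 and 6904 CPM in K556R refed replicates 1_b1, 2_b1, 1_b2, 2_b2 and 3_b2. It had 7317, 6992, 6450.5, 7123 and 7466 CPM in WT refed replicates 1_b1, 2_b1, 3_b1, 4_b1 and 1_b2. Other than 1_b1, the K556R refed libraries lay inside the WT refed range. Mup3 had 4485, 7827, 8098, 7038 and 6902 CPM in K556R fasted replicates 1_b1, 2_b1, 3_b1, 4_b1 and 1_b2. It had 7775, 7422, 8181, 8904 and 7613 CPM in the WT fasted replicates in the same order. Apart from both 1_b1 libraries of K556R, the 18 values lay between 6450.5 and 8904 CPM. Means ran in the order WT fasted, WT refed, K556R fasted and K556R refed, with overlap at each step.

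Mup21 was higher in WT fasted livers than in any library of the other 3 groups. In K556R refed livers Mup21 had 115.0, 153.7, 112.3, 155.1 and 133.4 CPM in replicates 1_b1, 2_b1, 1_b2, 2_b2 and 3_b2. In WT refed livers it had 123.6, 126.9, 147.8, 119.1 and 138.4 CPM in replicates 1_b1, 2_b1, 3_b1, 4_b1 and 1_b2, inside the range of the K556R refed libraries. These refed groups thus overlapped throughout. In K556R fasted livers it had 170.5, 123.3, 154.7, 155.7 and 92.2 CPM in replicates 1_b1, 2_b1, 3_b1, 4_b1 and 1_b2. In WT fasted livers it had 186.2, 193.1, 248.5, 188.7 and 180.3 CPM in the same order. The means of the other 3 groups, 133.9 ± 20.4 CPM in K556R refed, 131.2 ± 11.7 in WT refed and 139.3 ± 31.4 in K556R fasted livers, lay within their spread (SD, n = 5 each).

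**Figure D2:**
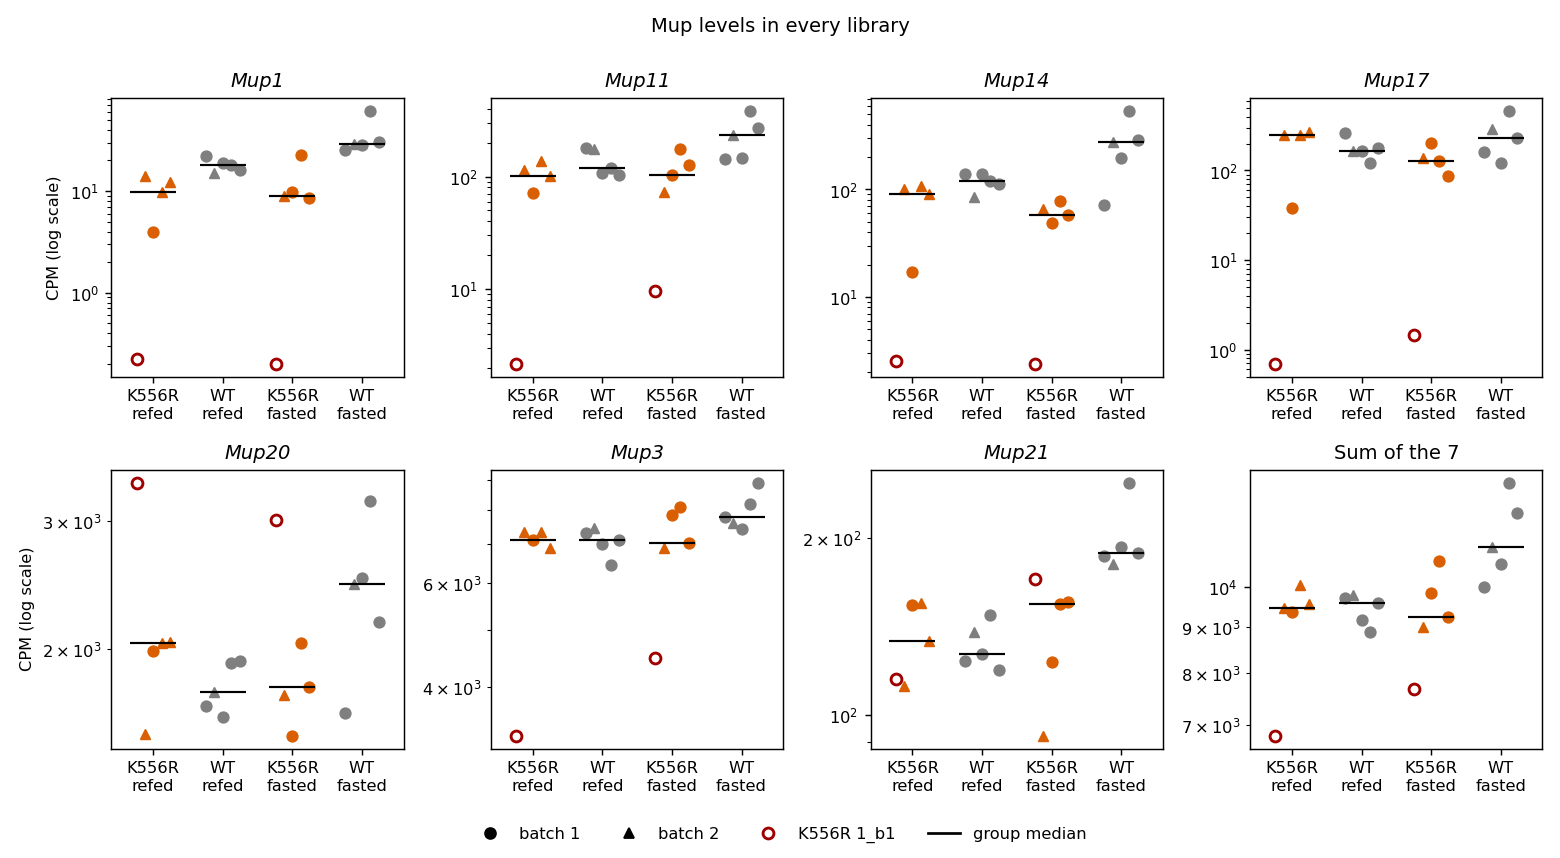
Level of each of the 7 Mup rows and of their sum in every library, in CPM on a log axis, by group. Circles are batch 1, triangles batch 2, open red circles the K556R libraries 1_b1 and black lines group medians; the open circles lie at 0.198 to 9.63 CPM for Mup1, Mup11, Mup14 and Mup17 but at 3384 CPM in the refed and 3005 CPM in the fasted one for Mup20.

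Both 1_b1 libraries of K556R differed from the others in the make-up of the Mup total as well as in its size. The 7 rows summed to 6808 CPM in K556R refed 1_b1 and 7674 CPM in K556R fasted 1_b1, against 8893 to 13070 CPM in the other 18 libraries. Mup20 made up 49.7% of the sum in K556R refed 1_b1 and 39.2% in K556R fasted 1_b1, against 15.5 to 24.4% in the others. Mup1, Mup11, Mup14 and Mup17 together made up 0.0823% of the sum in K556R refed 1_b1 and 0.178% in K556R fasted 1_b1, against 1.39 to 11.1% in the others. The low values still rested on counted reads. Mup17 had 37 counts in K556R refed 1_b1 and 59 in K556R fasted 1_b1, where the other 4 libraries of each group had a median 365.0 times higher in CPM in K556R refed and 90.3 times higher in K556R fasted livers. In K556R refed livers 3 of these 4 libraries were from batch 2, and the remaining one of batch 1, 2_b1, had 38.3 CPM of Mup17 against 0.687 CPM in 1_b1. Mup1 had 12 counts in K556R refed 1_b1 and 8 in K556R fasted 1_b1. Mup21, which lies next to Mup3 and shares 95.4% of its coding bases, was inside the range of the other libraries of its group in K556R refed 1_b1 and above them in K556R fasted 1_b1.

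**Figure D3:**
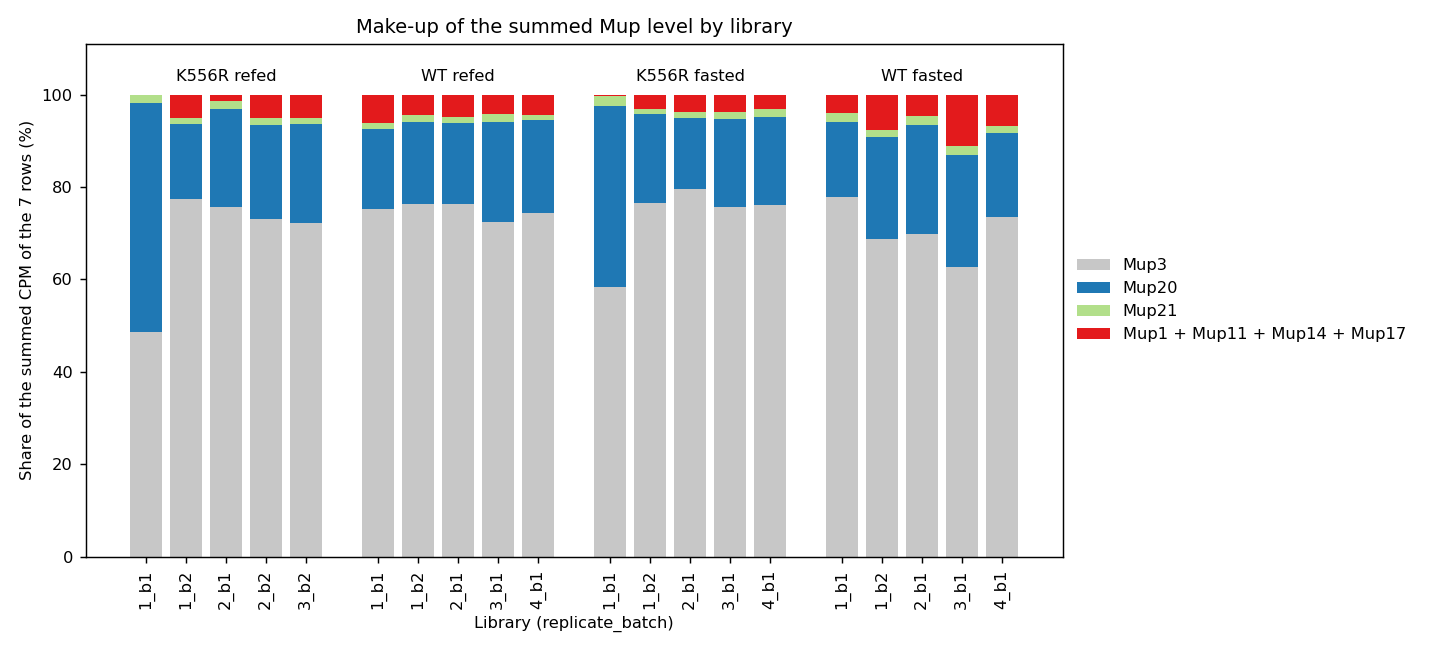
Share of the summed CPM of the 7 rows held by Mup3, Mup20, Mup21 and the near-identical Mup1, Mup11, Mup14 and Mup17, as stacked bars from 0 to 100%, 1 bar per library. The K556R 1_b1 bars stand out, with 49.7% Mup20 in the refed and 39.2% in the fasted one and a part for the near-identical rows too thin to see.

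K556R fasted livers were compared with WT fasted livers for the effect of the knock-in after food withdrawal. All 7 fitted log2 fold changes were negative, with a median of -1.21 against -0.01 over all genes tested. Mup14 had the lowest, -2.48 (SE 0.81), followed by Mup1 at -1.82 (SE 0.72), Mup11 at -1.25 (SE 0.71) and Mup17 at -1.21 (SE 0.94). Mup21 was at -0.53 (SE 0.13), Mup20 at -0.26 (SE 0.19) and Mup3 at -0.22 (SE 0.17). By edgeR's quasi-likelihood test 0 of the 7 had an adjusted p under 0.05, and 0% of the 13894 genes tested did. At an unadjusted p under 0.05 there were 3 of 7 rows (Mup1, Mup14 and Mup21) and 8.18% of all genes, and DESeq2 called 1 of the 7 (Mup21) and 60 genes, 0.479% of those it tested. The groups did not overlap for 2 of the 7, Mup1 and Mup21, both lower in K556R, beside 0.547% of all genes in that direction and 0.914% in either. In the 18 libraries left without both 1_b1, the same 2 of 7 did not overlap, beside 0.842% of all genes lower and 1.48% either way, and edgeR called 0 of 7 and 1 gene, 0.00719%. The members were chosen with this contrast known, so nothing is read from these counts.

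With both 1_b1 libraries left out, the 7 fasted fold changes were still all negative, at -2.15 (SE 0.54) for Mup14, -1.49 (SE 0.39) for Mup1, -0.97 (SE 0.34) for Mup11 and -0.88 (SE 0.49) for Mup17. Mup21 was then at -0.60 (SE 0.13), Mup20 at -0.44 (SE 0.14) and Mup3 at -0.10 (SE 0.07). The summed level of the 7 averaged 9291 ± 1112 CPM in K556R fasted against 11370.0 ± 1221 CPM in WT fasted livers (SD, n = 5 each), and 4 of 5 K556R libraries were below the lowest WT one. With 1_b1 kept, the mean log2 difference within batch 1 (4 against 4 libraries) was -3.00 for Mup14 and -0.43 for Mup21. Within batch 2 (1 against 1) it was -2.08 for Mup14 and -0.97 for Mup21. In batch 1, Mup14 had 2.38 CPM in K556R fasted 1_b1 and 48.8 to 78.8 CPM in the other K556R fasted libraries.

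K556R refed livers were then compared with WT refed livers. Fitted log2 fold changes were -1.74 (SE 1.02) for Mup14, -1.54 (SE 0.86) for Mup1, -1.17 (SE 1.24) for Mup17, -1.02 (SE 0.80) for Mup11, -0.22 (SE 0.18) for Mup3, 0.09 (SE 0.14) for Mup21 and 0.38 (SE 0.20) for Mup20. By edgeR 0 of 7 had an adjusted p under 0.05, beside 0% of all genes, and 0 of 7 had an unadjusted p under 0.05, beside 4.99% of all genes. DESeq2 called 0 of 7 and 3 genes in all, 0.0149%. Mup1 alone did not overlap between the groups, lower in K556R, beside 0.425% of all genes in that direction and 0.619% in either. In the 18 libraries it was still the 1 of 7, beside 0.849% of all genes lower and 1.89% either way. Much of these values rested on the K556R refed library 1_b1. Without both 1_b1 libraries, Mup14 was at -0.87 (SE 0.65), Mup1 at -0.83 (SE 0.46), Mup11 at -0.44 (SE 0.37), Mup17 at -0.25 (SE 0.61), Mup20 at 0.11 (SE 0.16) and Mup21 at 0.19 (SE 0.14), and Mup3 turned to 0.03 (SE 0.08).

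The batches were unevenly spread over the refed groups, as 3 of the 5 K556R refed libraries and 1 WT refed library were from batch 2. Within batch 1, 2 K556R refed libraries (1_b1 and 2_b1) stood against 4 WT refed ones. The mean log2 difference was -5.10 for Mup17, -4.31 for Mup1, -4.27 for Mup14 and -3.34 for Mup11. These means include 1_b1, which stood apart, at 0.687, 0.223, 2.54 and 2.15 CPM in that order. Library 2_b1 had 38.3, 3.97, 17.3 and 70.7 CPM, and the lowest WT refed values of batch 1 were 122.2, 16.3, 113.3 and 104.1 CPM. The part of 1_b1 and the part of batch were not tested. Within batch 2, 3 K556R refed libraries stood against 1 WT refed library, and the differences were 0.64 for Mup17, -0.34 for Mup1, 0.23 for Mup14 and -0.58 for Mup11. Only Mup1 and Mup11 of these 4 were thus lower in K556R refed livers within both batches.

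Refeeding in WT livers went with lower values of all 7 rows. The log2 fold changes of WT refed over WT fasted livers were -1.15 (SE 0.78) for Mup14, -0.96 (SE 0.69) for Mup1, -0.81 (SE 0.71) for Mup11, -0.60 (SE 0.13) for Mup21, -0.46 (SE 0.93) for Mup17, -0.43 (SE 0.20) for Mup20 and -0.18 (SE 0.17) for Mup3. Their median was -0.60, against -0.01 for all genes. The summed level averaged 9429 ± 384 CPM in WT refed livers against 11370.0 ± 1221 CPM in WT fasted livers (SD, n = 5 each), and all 5 WT refed sums lay below all 5 WT fasted ones. By edgeR 1 of the 7, Mup21, had an adjusted p under 0.05, beside 45.1% of all genes. At an unadjusted p under 0.05 there were 2 of 7, beside 51.2% of all genes, and DESeq2 called 1 of 7, beside 40.2%. Groups did not overlap for 2 of 7, Mup1 and Mup21, both lower in WT refed livers, beside 18.7% of all genes in that direction and 34.6% in either. Without the K556R libraries 1_b1, which enter this comparison through the shared estimate of spread, 4 of 7 (Mup1, Mup3, Mup20 and Mup21) had an adjusted p under 0.05, beside 48.9% of all genes, while the fold changes moved little, to -1.18 (SE 0.48) for Mup14 and -0.96 (SE 0.36) for Mup1. Within batch 1 (4 against 4) the mean log2 difference was -0.65 for Mup21 and -0.87 for Mup1, and within batch 2 (1 against 1) it was -0.38 for Mup21 and -0.96 for Mup1. All 7 members were lower in WT refed livers within both batches.

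In K556R livers the refed and fasted groups overlapped for all 7 rows. K556R refed over K556R fasted gave log2 fold changes of -0.67 (SE 0.86) for Mup1, -0.58 (SE 0.83) for Mup11, -0.41 (SE 0.98) for Mup14, -0.41 (SE 1.23) for Mup17, -0.18 (SE 0.18) for Mup3, 0.02 (SE 0.14) for Mup21 and 0.20 (SE 0.20) for Mup20. By edgeR 0 of 7 had an adjusted p under 0.05, beside 39.9% of all genes, and 0 of 7 an unadjusted p under 0.05, beside 47.3%. DESeq2 called 0 of 7, beside 35.8%. The overlap of all 7 stands beside 26.9% of all genes free of overlap either way and 14.1% lower in refed livers. Without both 1_b1 libraries Mup14 was at 0.10 (SE 0.65) and Mup17 at 0.15 (SE 0.62), 0 of 7 were called beside 37.5% of all genes, and 0 of 7 were free of overlap beside 37.2% of all genes either way and 19.1% lower. Over all 20 libraries the batches went opposite ways for 6 of the 7 rows, Mup20 being the exception at 0.36 in batch 1 and 0.10 in batch 2. Batch 1 held both 1_b1 libraries, and the direction of Mup21 there depends on them. Without them, K556R refed 2_b1 still lay below the K556R fasted libraries of batch 1 in Mup1, Mup11, Mup14 and Mup17. Mup21, at -0.17 in batch 1 and 0.52 in batch 2, had 115.0 CPM in K556R refed 1_b1 and 170.5 CPM in K556R fasted 1_b1. In the rest of batch 1 it had 153.7 CPM in K556R refed and 123.3 to 155.7 CPM in K556R fasted livers. Within batch 1 (2 K556R refed against 4 K556R fasted libraries) Mup17 differed by -3.05 and Mup1 by -2.22 on the log2 scale. Within batch 2 (3 against 1) the differences were 0.90 for Mup17 and 0.41 for Mup1. Apart from 1_b1, Mup17 in batch 1 had 38.3 CPM in K556R refed and 86.8 to 203.0 CPM in K556R fasted livers. The comparison shares the K556R fasted libraries with the genotype comparison above and the K556R refed libraries with the refed one.

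The interaction, the refeeding log2 fold change in K556R minus that in WT livers, was 0.74 (SE 1.27) for Mup14, 0.64 (SE 0.28) for Mup20, 0.62 (SE 0.20) for Mup21, 0.28 (SE 1.11) for Mup1, 0.23 (SE 1.08) for Mup11, 0.04 (SE 1.56) for Mup17 and -0.002 (SE 0.25) for Mup3. By edgeR 0 of 7 and 0% of all genes had an adjusted p under 0.05. At an unadjusted p under 0.05 there were 2 of 7 rows (Mup20 and Mup21) and 3.98% of all genes, and DESeq2 called 0 of 7 and 2 genes, 0.00992%. Without both 1_b1 libraries the interaction was 1.27 (SE 0.82) for Mup14, 0.79 (SE 0.19) for Mup21, 0.66 (SE 0.60) for Mup1, 0.64 (SE 0.78) for Mup17, 0.55 (SE 0.21) for Mup20, 0.54 (SE 0.50) for Mup11 and 0.13 (SE 0.10) for Mup3, and 0 of 7 had an adjusted p under 0.05.

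**Figure D4:**
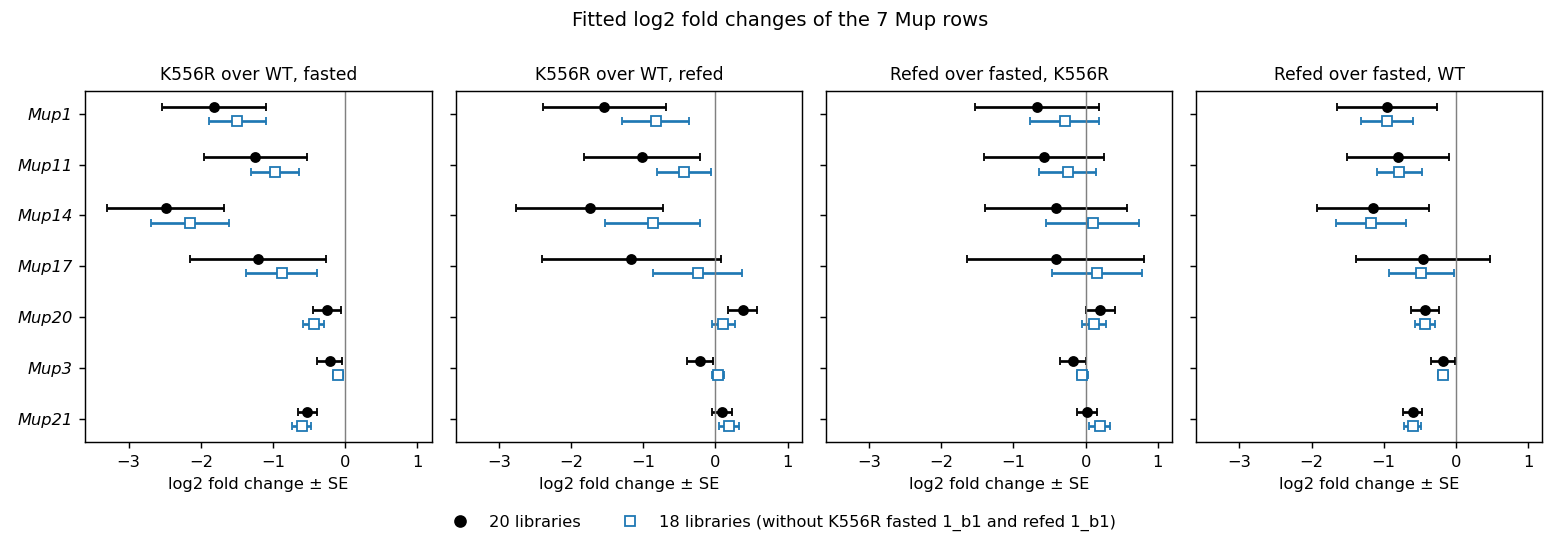
Fitted log2 fold change of each Mup row with its standard error in 4 comparisons, with all 20 libraries (black circles) and with the 18 left after both K556R libraries 1_b1 were removed (open squares). For K556R over WT in fasted livers all points lie left of 0 in both fits, while in refed livers the squares for Mup1, Mup11, Mup14 and Mup17 lie nearer to 0 than the circles.

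The near-identical 4 varied together, and rows of other sequence did so less evenly. Across the 18 libraries without the K556R libraries 1_b1, after group and batch means were removed, Pearson's r of log2 CPM among Mup1, Mup11, Mup14 and Mup17 was 0.59 to 0.80 over 6 pairs, which share reads as described above. Mup20 had an r of 0.11 to 0.50 with these 4, and Mup3 0.24 to 0.64. Mup21 had 0.03 to 0.63 with them, the highest with Mup11, and 0.59 with Mup20. Mup3 and Mup21, which share 95.4% of their coding bases, had an r of 0.13 over the 18 libraries and 0.16 over all 20, so likeness in sequence did not go with likeness in level in every pair, and the r of Mup3 with Mup11 (0.64) was above the lowest of the 6 pairs. With both 1_b1 libraries included, the 6 pairs stood at 0.90 to 0.97, Mup3 with the same 4 stood at 0.84 to 0.97, and Mup20 with them turned negative, at -0.68 to -0.47. The signs for Mup20 over 20 libraries thus rest on those 2 libraries.

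**Figure D5:**
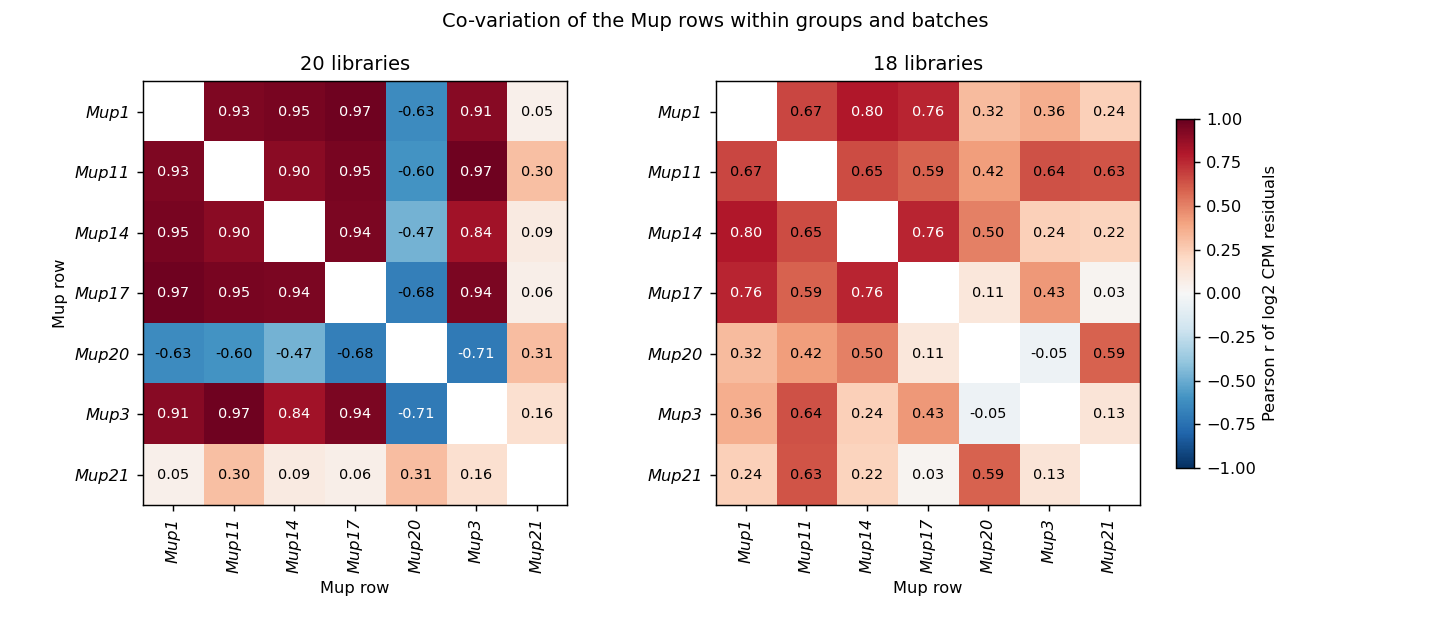
Pearson's r between the Mup rows, from log2 CPM after group and batch means were taken out, over all 20 libraries (left) and over the 18 without K556R 1_b1 (right). The blue band of Mup20, -0.71 to -0.47 against 5 other rows on the left, is not present on the right, where its lowest r is -0.05.

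Among 9335 named genes with a mean of at least 1 on the log2 CPM scale, those whose residuals over the 20 libraries were most like the summed 7 rows were Cyp2d9 (r = 0.885), Dio1 (0.854), Slc25a17 (0.852), F2r (0.843) and Cela1 (0.842). Over the 18 libraries the same genes had r of 0.657, 0.600, 0.815, 0.562 and 0.490 in that order. Mup3 made up 48.5 to 79.6% of the sum over the 20 libraries, so likeness to the sum is largely likeness to that row. With the sum of Mup1, Mup11, Mup14 and Mup17 over the 20 libraries, these genes had r of 0.938, 0.914, 0.712, 0.926 and 0.910. Cyp2d9 encodes a male-biased steroid hydroxylase of mouse liver, and it stood at 484.4 CPM in K556R refed 1_b1 and 861.6 CPM in K556R fasted 1_b1, against 1066 to 2061 CPM in the other 18 libraries. Dio1, the deiodinase that activates thyroid hormone, stood at 37.3 CPM in K556R refed 1_b1 and 62.7 CPM in K556R fasted 1_b1, against 84.0 to 234.1 CPM in the others. Slc25a17 encodes a peroxisomal carrier, F2r a thrombin receptor and Cela1 an elastase. Least like the sum were Rpap3 (-0.860), Ttc21b (-0.854) and Marveld2 (-0.848). Over the 18 libraries these had r of -0.581 for Rpap3, -0.772 for Ttc21b and -0.548 for Marveld2.

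The growth hormone pathway genes were listed beside the Mup rows as their upstream axis. On refeeding, 5 of 12 tested changed in K556R livers (3 up, 2 down) and 4 of 12 in WT livers (2 up, 2 down), beside 39.9% and 45.1% of all genes. Stat5a, a transcription factor activated by the growth hormone receptor, rose by 0.48 on the log2 scale in K556R (SE 0.13, edgeR adjusted p = 0.00501) and by 0.48 in WT livers (SE 0.12, adjusted p = 0.00338). Igfals, which encodes the acid-labile subunit that stabilises IGF1 in blood, rose by 0.65 in K556R (SE 0.18, adjusted p = 0.00626) and by 0.62 in WT livers (SE 0.17, adjusted p = 0.00609). Socs3, an inhibitor of JAK signalling, fell, with a log2 fold change of -0.92 in K556R (SE 0.29, adjusted p = 0.0186) and -1.02 in WT livers (SE 0.28, adjusted p = 0.00607). Between the genotypes 0 of 12 passed in either state by edgeR or DESeq2. Of all genes 0% passed by edgeR, and 0.479% in fasted and 0.0149% in refed livers by DESeq2. At an unadjusted p under 0.05 there were 0 in refed livers, beside 4.99% of all genes, and 2 in fasted livers, beside 8.18%. These 2 were Cux2, described below, and the receptor gene Ghr, at -0.22 in K556R over WT fasted livers (SE 0.09, edgeR adjusted p = 0.511).

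Of 12 genes for hormone receptors and hepatocyte transcription factors, 4 changed on refeeding in K556R (1 up, 3 down) and 7 in WT livers (3 up, 4 down), beside 39.9% of all genes in K556R and 45.1% in WT livers. Ppara, the fatty acid receptor of fasting, fell, with a log2 fold change of -1.09 in K556R (SE 0.09, edgeR adjusted p = 2.04e-08) and -1.14 in WT livers (SE 0.08, adjusted p = 3.15e-09). Hnf4a, a main regulator of hepatocyte genes, fell, at -0.80 in K556R (SE 0.07, adjusted p = 7.18e-08) and -0.73 in WT livers (SE 0.07, adjusted p = 5.04e-08). Cebpb, a factor of the acute-phase response, fell too, at -1.96 in K556R (SE 0.35, adjusted p = 0.000233) and -1.77 in WT livers (SE 0.32, adjusted p = 0.000251). Thra, a thyroid hormone receptor gene, rose by 0.46 in K556R (SE 0.10, adjusted p = 0.00126) and by 0.51 in WT livers (SE 0.10, adjusted p = 0.000278). Between the genotypes 0 of 12 passed by edgeR or DESeq2, beside the shares of all genes given above. At an unadjusted p under 0.05 there were 2 in fasted livers, Zhx2 and Nr3c1, beside 8.18% of all genes. In refed livers there were 0, beside 4.99%.

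Other genes with higher expression in male liver were set beside the Mup rows. In K556R over WT fasted livers 17 of 19 were below 0, with a median log2 fold change of -0.34. By edgeR and by DESeq2 0 of 19 passed, with 9 at an unadjusted p under 0.05, all lower in K556R, beside 8.18% of all genes in either direction. Without both 1_b1 libraries the median was -0.44 and 0 of 19 passed by edgeR. The 4 with the lowest p were Nudt7 at -0.99 (SE 0.27, edgeR adjusted p = 0.302), Hsd3b5 at -1.33 (SE 0.37, 0.312), Selenbp2 at -1.92 (SE 0.55, 0.339) and Keg1 at -0.54 (SE 0.16, 0.343). In refed livers 8 of 19 were below 0. There 0 passed by edgeR, beside 0% of all genes, and 0 by DESeq2, beside 0.0149%. At an unadjusted p under 0.05 there were 0 of 19, beside 4.99% of all genes. On refeeding 5 of 19 changed in K556R (4 up, 1 down) and 7 of 19 in WT livers (3 up, 4 down), below the shares of 39.9% of all genes in K556R and 45.1% in WT livers. In WT livers 13 of 19 were lower on refeeding, with a median log2 fold change of -0.36. In K556R livers 6 of 19 were lower, with a median of 0.16. Cyp2u1, with the lowest p of the list, rose by 1.94 in K556R livers (SE 0.16, edgeR adjusted p = 4.79e-08). In WT livers it rose by 1.52 (SE 0.15, adjusted p = 2.06e-07), opposite in sign to most of the list and to the Mup rows.

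Of 16 female-biased genes in the table, 11 passed the filter on low counts, which a gene can pass through 1 group alone. Which group carried each gene was not examined, so nothing is concluded from their count. All 11 had a positive log2 fold change in K556R over WT fasted livers, with a median of 0.86 against -0.01 over all genes tested. By edgeR or DESeq2 0 of 11 passed, and 5 had an unadjusted p under 0.05, beside 8.18% of all genes. The median was 0.70 without both 1_b1 libraries. Cux2, a female-biased transcription factor, was at 1.26 (SE 0.37, edgeR adjusted p = 0.337), Fmo2 at 0.56 (SE 0.20, 0.433), Prlr at 0.39 (SE 0.14, 0.440) and Abcd2 at 0.86 (SE 0.32, 0.466). In refed livers 4 of 11 were positive, with a median of -0.03. There 0 of 11 passed by edgeR, beside 0% of all genes, and 0 by DESeq2, beside 0.0149%. At an unadjusted p under 0.05 there was 1, beside 4.99% of all genes. On refeeding 5 of 11 changed in K556R (1 up, 4 down) and 5 of 11 in WT livers (3 up, 2 down), near the 39.9% of all genes in K556R and 45.1% in WT livers. Fmo2 fell, at -1.64 in K556R (SE 0.21, adjusted p = 9.04e-06) and -1.04 in WT livers (SE 0.20, adjusted p = 0.000327). Both sex-biased lists were measured in the same libraries as the Mup rows and are no independent evidence on them. The male-biased list without Mup summed to 10510.0 CPM in K556R refed 1_b1 and 13600.0 CPM in K556R fasted 1_b1, inside the 7025 to 18650.0 CPM of the other 18 libraries.

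Other genes of the lipocalin family were followed as relatives of the Mup rows. In K556R livers 1 of 10 tested passed and in WT livers 2 of 10, all lower in refed livers by edgeR, beside 39.9% of all genes in K556R and 45.1% in WT livers. Rbp4, the retinol carrier of plasma, fell, at -0.29 in K556R (SE 0.09, edgeR adjusted p = 0.0143) and -0.26 in WT livers (SE 0.09, adjusted p = 0.0168). Apom, an apolipoprotein of the lipocalin fold, was at -0.22 in K556R livers (SE 0.11, adjusted p = 0.107) and fell in WT livers, at -0.38 (SE 0.10, adjusted p = 0.00461). Between the genotypes 0 of 10 passed by edgeR or DESeq2 in either state, beside the shares of all genes given above. At an unadjusted p under 0.05 there was 1 in fasted livers, Lcn2, beside 8.18% of all genes. In refed livers there were 0, beside 4.99%.

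The table held 12 further Mup rows, of which 8 passed the filter on low counts. Mup10 was the most abundant, at 355.0 to 1113 CPM, followed by Mup19 at 1.09 to 77.1 CPM and Mup2 at 0.315 to 22.6 CPM. In K556R refed 1_b1, Mup10 had 355.0 CPM against 519.7 to 1086 CPM in the other K556R refed libraries, and in K556R fasted 1_b1 it had 459.4 CPM against 802.6 to 1003 CPM in the other K556R fasted libraries. Mup19 had 1.30 CPM in K556R refed 1_b1 against 8.01 to 24.4 CPM in the others of its group. In K556R fasted 1_b1 it had 1.09 CPM against 14.4 to 24.3 CPM. Mup2 had 0.315 CPM in K556R refed 1_b1 against 4.26 to 15.1 CPM. In K556R fasted 1_b1 Mup2 had 0.322 CPM against 2.65 to 4.41 CPM. Mup6, at 0.186 CPM in K556R refed 1_b1, was inside the 0.132 to 1.05 CPM of the others of its group. The 4 rows that did not pass the filter had at most 10 counts in any library. Mup4 and Mup5, which are known from nasal, lacrimal and salivary glands and were picked after their values were seen, had 3 and 8 counts over all 20 libraries. Among 5 markers of salivary and lacrimal glands, 4 were at 0 in every library, and the fifth, Amy1, is also made in liver.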

How the data were processed

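The authors deposited raw read counts per gene symbol. The submitters' processing notes name the build mm10 and the tools HTSeq, STAR, STAR-Fusion, TopHat, edgeR and DESeq2. The sources used here do not give the annotation, the strand setting or the treatment of shared reads, so antisense reads cannot be told apart. Each of the 20 columns entered the fits. With edgeR 4.0.16 (R 4.3.3), 13894 genes passed filterByExpr (minimum count 10, minimum total 15). Counts were scaled by TMM and tested by the robust quasi-likelihood test with group and batch as terms, with Benjamini-Hochberg adjustment over all genes and a threshold of 0.05. The alternatives were other scalings, DESeq2 1.42.0, other filters, no batch term, batch 1 alone, a replicate block, only the groups compared, and each library left out. A fit without both K556R libraries 1_b1 was added after the data were seen. The members and the gene lists were chosen with earlier results of these data known. All 7 members were described, the 3 most abundant other Mup rows named, and of each list up to 4 genes with the lowest p; a few named outside this rule were chosen after their values were seen. The test was checked on simulated counts. The labels do not say how replicates relate to animals, so the p-values cover only the spread among these samples, which may be technical. Agreement between pairs of libraries of 1 group was checked, and no 2 agreed within sampling noise.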

Additional observations from a re-analysis of the deposited data

Results flagged for a closer look

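In groups of 5, a library was singled out when its gap to the nearest other library took up more of the range of the group than Dixon's critical value for 5 samples, which chance does in about 1 of 20 groups. The 7 rows and their sum in 4 groups gave 32 such groups, of which 5 met this. K556R refed 1_b1 had the lowest Mup3, 3304 CPM, with the nearest other K556R refed library at 6904 CPM. The same library had the highest Mup20, 3384 CPM against 2042 CPM in the nearest, and the lowest sum of the 7 rows, 6808 CPM against 9371 CPM. WT fasted 3_b1 had the highest Mup1 of its group, 61.5 CPM against 30.2 CPM in the nearest, and the highest Mup21, 248.5 CPM against 193.1 CPM. WT fasted 3_b1 also had the highest sum of all libraries, 13070.0 CPM.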

How the results depend on the processing

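By edgeR the number of the 7 rows called in WT refed over WT fasted livers was 1, beside 6263 genes called in all. With only the groups compared it was 3, beside 6673 genes. Leaving out single libraries gave 1 to 2, beside 5631 to 6606 genes. It was 2 without WT fasted 1_b1, without K556R fasted 1_b1 or without K556R refed 1_b1. Without both K556R libraries 1_b1 it was 4, beside 6803 genes. In K556R over WT fasted livers 0 were called, beside 0 genes in all, and 1 by DESeq2, beside 60. The other 3 comparisons gave 0 under every alternative run. Signs of uncalled fold changes reversed as follows, and the cause was not tested. For K556R refed over fasted, Mup14 was at 0.328, Mup17 at 0.542 and Mup21 at -0.057 with no batch term, Mup14 at 0.096 and Mup17 at 0.154 without both 1_b1 libraries, and Mup21 at -0.168 in batch 1 alone. For K556R over WT refed, Mup3 was at 0.034 without both. For the interaction, batch 1 alone gave -1.367 for Mup1, -0.631 for Mup11, -1.168 for Mup14 and -2.009 for Mup17, upper-quartile scaling gave -0.003 for Mup17, and Mup3 was at 0.071 with no batch term and 0.129 without both.

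Leaving out single libraries gave log2 fold changes for K556R refed over fasted of -0.823 to 0.310 for Mup14, -0.932 to 0.385 for Mup17, -0.038 to 0.363 for Mup20, -0.159 to 0.132 for Mup21 and -0.295 to 0.055 for Mup3. It gave -0.707 to 0.030 for Mup17 in WT refed over fasted and -0.359 to 0.014 for Mup3 in K556R over WT refed. For the interaction it gave -0.142 to 0.910 for Mup1, -0.146 to 0.786 for Mup11, -0.642 to 0.861 for Mup17 and -0.139 to 0.230 for Mup3. In K556R over WT fasted livers all 7 rows stayed below 0 under every alternative run.

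Replicate numbers did not pair the libraries as a rule (r of deviations over genes of -0.373 to 0.635 over 24 pairs, 5 over 0.1, and 4 of 18 libraries closest to one of their own number). The 2 K556R libraries 1_b1 are an exception in the Mup rows: both lay below their groups in Mup1, Mup3, Mup11, Mup14 and Mup17 and above them in Mup20. With the replicate number as a block, 1 member was called in WT refeeding and 0 elsewhere, 5929 genes were called in WT and 4511 in K556R refeeding, Mup21 was at -0.054 in K556R refeeding, and the interaction was -0.035 for Mup11 and -0.571 for Mup17. Depth limits Mup1 most, which had 12 counts in K556R refed 1_b1 and 8 in K556R fasted 1_b1.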
